A study of Mus musculus with 16 samples.

Results

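The adipocyte marker genes described here are Adipoq, Lep, Cfd, Retn, Plin1, Cidec, Fabp4, Scd1, Pparg and Car3. These 10 genes were taken by name from the 47643 genes of the table, whatever their values. White adipocytes store triglyceride in a single large lipid droplet and release hormones into the blood, and in muscle they lie between the myofibers or in the fat around the muscle and its vessels. Because most of these genes are strongly expressed in adipocytes and weakly in myofibers, a little fat in a muscle sample moves them together in that sample. Several of them are also expressed by other cells of muscle. Fabp4 is strongly expressed in capillary endothelium, Car3 in myofibers, and Pparg and Scd1 in further cell types.

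RNA was sequenced from the tibialis anterior muscle of 16 C57BL6/J mice labelled male, divided evenly over 4 groups that combine genotype (WT or UBR4 mKO) with age (6 or 24 months). All mice were homozygous for floxed Ubr4 alleles and all were injected with tamoxifen. UBR4 mKO mice also carried a tamoxifen-inducible Cre under the ACTA1 promoter, which is active in skeletal muscle fibers, and their siblings without Cre served as WT. The Cre is therefore not targeted to adipocytes, endothelium or other cells between the myofibers. Levels are given as TPM, that is, reads per transcript length scaled to the same sum in every sample, so that levels of different genes can be set side by side but the depth behind them is unknown. Differences are given as log2 after adding 0.1 to each TPM value, and for genes with little RNA this shrinks them. They were tested with limma over the 10628 genes with a mean of at least 1 TPM, and a gene was called when its Benjamini-Hochberg adjusted p was under 0.05. Of the 10 genes, 7 passed this filter and Lep, Plin1 and Retn did not, so these 3 were compared with an exact permutation test over samples. Averaged over the 16 samples, the levels ran in the order Car3 (2290 TPM), Fabp4 (313.4 TPM), Cfd (14.9 TPM), Scd1 (8.81 TPM), Adipoq (2.21 TPM), Pparg (1.98 TPM), Cidec (1.12 TPM), Retn (0.803 TPM), Plin1 (0.364 TPM) and Lep (0.250 TPM).

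Some facts of the whole table bear on what follows. Ubr4 was lower in UBR4 mKO muscles, at 4.91 to 6.54 TPM against 9.09 to 15.7 TPM in WT at 6 months and at 10.1, 14.6, 4.28 and 7.63 TPM against 17.0 to 21.1 TPM at 24 months. It was least reduced in replicate 2 of 24-month UBR4 mKO, and at 24 months the groups did not overlap but Ubr4 was not called (log2 difference -1.12, limma adjusted p = 0.0598, and limma adjusted p = 0.0281 after median-of-ratios scaling). Xist, the RNA of the inactive X chromosome in female cells, was at 0.711 to 23.8 TPM in all 8 samples of 6 months and at most 0.0252 TPM in all 8 samples of 24 months, against the male label. The summed level of 4 Y-linked genes was 4.36 to 25.5 TPM in 6-month WT samples, 30.7 to 45.9 TPM in 6-month UBR4 mKO replicates 1 to 3 and 0.181 TPM in replicate 4, against 34.6 to 59.6 TPM at 24 months. None of the 4 was called between the genotypes at 6 months, but without that replicate 4 and replicates 1 and 3 of 24-month UBR4 mKO 4 of 4 were called higher in UBR4 mKO. Age therefore cannot be told apart here from whatever makes Xist differ. At 6 months Y-linked RNA was above every WT sample in UBR4 mKO replicates 1 to 3 and below every WT sample in replicate 4. Mitochondrially encoded genes took 52.6 to 59.7% of all TPM in 6-month WT samples and 46.1 to 51.7% in the other groups. The median gene was 0.33 higher on the log2 scale in UBR4 mKO than in WT at 6 months and 0.26 higher at 24 than at 6 months in WT, whereas it moved by 0.013 between the genotypes at 24 months and by -0.043 with age in UBR4 mKO. A scaling to the median of ratios over the genes detected in every sample sets these shifts close to 0, and the calls it changes are given for the 10 genes, and for the other lists as counts. The third UBR4 mKO sample of 24 months correlated with its group at r = 0.965 to 0.974 over genes, below all pairs of samples that did not include it (0.982 or more within a group).

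The genes lie on 7 chromosomes of GRCm38. Of the hormones and secreted proteins, Adipoq (adiponectin) is at chr16:23146536-23158028 on the plus strand, Lep (leptin) at chr6:29060220-29073877 on the plus strand, Cfd (adipsin, or complement factor D) at chr10:79890853-79892655 on the plus strand and Retn (resistin) at chr8:3655770-3660110 on the plus strand. The lipid droplet genes are Plin1 (perilipin 1, which coats the droplet) at chr7:79720218-79732903 on the minus strand and Cidec (which lets droplets fuse) at chr6:113424634-113435760 on the minus strand. Fabp4, a fatty acid carrier, is at chr3:10204088-10208576 on the minus strand, and Car3 (carbonic anhydrase 3) at chr3:14863512-14872523 on the plus strand. Scd1, which desaturates stearate to oleate, is at chr19:44394455-44407879 on the minus strand. Pparg, the nuclear receptor that drives adipocyte differentiation, is at chr6:115360951-115490399 on the plus strand.

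Adipoq, Cfd, Lep, Plin1 and Cidec rose and fell together from sample to sample, and the sequence before the start site is shown for 4 of them. RefSeq start sites on GRCm38.p6 were found for 7 of the 10 genes. The 250 bases before each start were searched on both strands for TTGCNNAA, a form of the site of the C/EBP factors, which act with PPARG in adipocytes. It was found for Lep, Plin1, Cidec and Pparg and not for Adipoq, Cfd and Retn. The 7 genes have 10 start sites in the table, of which 4 hold it, and of all 32851 start sites 9.56% do. The motif is in capitals in the lines that follow, each written 5′ to 3′ on the strand of the gene.
Lep, chr6:29059971-29060220, plus strand: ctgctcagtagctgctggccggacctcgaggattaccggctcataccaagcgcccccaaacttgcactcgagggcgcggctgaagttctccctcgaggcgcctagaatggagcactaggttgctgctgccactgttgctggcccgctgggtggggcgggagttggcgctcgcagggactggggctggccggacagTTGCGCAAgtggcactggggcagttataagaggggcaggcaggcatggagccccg
Plin1, chr7:79732777-79733026, minus strand: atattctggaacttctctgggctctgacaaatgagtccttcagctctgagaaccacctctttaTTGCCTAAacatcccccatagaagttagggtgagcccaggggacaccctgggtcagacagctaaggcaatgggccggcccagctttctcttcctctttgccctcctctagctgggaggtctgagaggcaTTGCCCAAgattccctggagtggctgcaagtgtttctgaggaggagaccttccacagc
Cidec, chr6:113434765-113435014, minus strand: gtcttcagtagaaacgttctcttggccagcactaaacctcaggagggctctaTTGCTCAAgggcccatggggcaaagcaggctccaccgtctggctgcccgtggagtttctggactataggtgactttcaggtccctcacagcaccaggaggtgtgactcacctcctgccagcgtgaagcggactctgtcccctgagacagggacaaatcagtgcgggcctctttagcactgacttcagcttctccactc
Adipoq, chr16:23146286-23146535, plus strand: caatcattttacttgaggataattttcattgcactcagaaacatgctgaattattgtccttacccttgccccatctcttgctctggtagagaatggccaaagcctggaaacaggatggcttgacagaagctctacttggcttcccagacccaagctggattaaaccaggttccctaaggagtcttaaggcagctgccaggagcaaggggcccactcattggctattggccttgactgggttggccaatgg

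In Lep the motif begins 55 bases before the start and reads the same on both strands, and in Cidec it begins 198 bases before. The stretch shown for Cidec belongs to the inner of its start sites, and the outer one has no match. Plin1 has 2 matches, 187 and 58 bases before the start. Pparg has matches 215 and 16 bases before 1 of its 3 start sites. The stretch before Adipoq is shown as one without a match, and these matches in letters do not say whether a factor binds there.

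Adipoq was low in muscle and rose above all other samples in the first UBR4 mKO sample of 24 months. The hormone acts on muscle through the receptors Adipor1 and Adipor2. Its level was 1.14, 1.02, 0.574 and 1.85 TPM in 6-month WT and 1.06, 1.18, 1.54 and 1.20 TPM in 6-month UBR4 mKO samples. It was 1.53, 2.59, 0.821 and 1.72 TPM in 24-month WT and 10.01, 1.13, 4.73 and 3.23 TPM in 24-month UBR4 mKO samples, each in the order of replicates 1 to 4. The 4 samples of old UBR4 mKO mice were spread from within the WT range to several times above it, and 3 of them were above all 12 samples of the other groups. The means were 4.78 ± 3.79 TPM and 1.66 ± 0.727 TPM (SD, n = 4 each), a difference of 1.19 on the log2 scale (SE 0.47) that was not called (limma adjusted p = 0.369). Without replicate 1 the difference was 0.72.

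Lep was at most 0.229 TPM in the 12 samples of the other groups and was highest in the same sample as Adipoq. Leptin is released in proportion to fat mass. The gene was at 0.0495, 0.0840, 0.0278 and 0.166 TPM in 6-month WT, at 0.0469, 0.152, 0.179 and 0.0438 TPM in 6-month UBR4 mKO and at 0.123, 0.229, 0.169 and 0.0906 TPM in 24-month WT samples. It was at 2.17, 0.0397, 0.319 and 0.113 TPM in 24-month UBR4 mKO samples. Of these 4, replicate 1 was 19.2 times the median of the other 15 samples and replicate 2 was below every WT sample of its age. The genotypes overlapped at both ages. The means at 24 months were 0.660 ± 1.01 TPM in UBR4 mKO and 0.153 ± 0.0602 TPM in WT (SD, n = 4 each), a difference of 0.73 in mean log2 (exact two-sided permutation test over samples, p = 0.6), and without replicate 1 it was -0.096.

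Cfd was the most abundant of the secreted genes. Adipsin activates the alternative pathway of complement. Its level was 9.12, 10.7, 7.32 and 13.4 TPM in 6-month WT, 7.22, 10.02, 15.1 and 9.54 TPM in 6-month UBR4 mKO and 12.4, 15.2, 5.73 and 8.56 TPM in 24-month WT samples. In 24-month UBR4 mKO samples it was 51.5, 8.995, 29.5 and 23.3 TPM. Again replicates 1, 3 and 4 were above all samples of the other groups, and replicate 2 was within the range of WT. The means were 28.3 ± 17.7 TPM in UBR4 mKO and 10.5 ± 4.17 TPM in WT at 24 months (SD, n = 4 each). The log2 difference of 1.27 (SE 0.40) had an unadjusted p of 0.00561 and was not called over all genes (limma adjusted p = 0.213). It was called only in the fit that left out replicate 2 of this group (log2 difference 1.73, limma adjusted p = 0.0323). Replicate 2 was the only sample of the group that overlapped WT, so nothing is read from that call.

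Retn was at 0.373 to 0.765 TPM in all 12 samples of the other groups. Resistin is a hormone of mouse adipocytes. In 24-month UBR4 mKO samples it was at 1.77, 0.675, 1.38 and 1.98 TPM. Replicates 1, 3 and 4 were above every other sample, in an order that differs from that of Adipoq and Cfd, since replicate 4 was highest. The means at 24 months were 1.45 ± 0.575 TPM in UBR4 mKO and 0.546 ± 0.147 TPM in WT (SD, n = 4 each), a difference of 1.20 in mean log2 (exact two-sided permutation test, p = 0.0571, with 0.0286 the smallest p that 4 against 4 samples allow). Without replicate 2 of UBR4 mKO, the only sample of its group that overlapped WT, it was 1.501. Leaving that sample out fixes full separation of the groups, so no p is given.

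**Figure D1:**
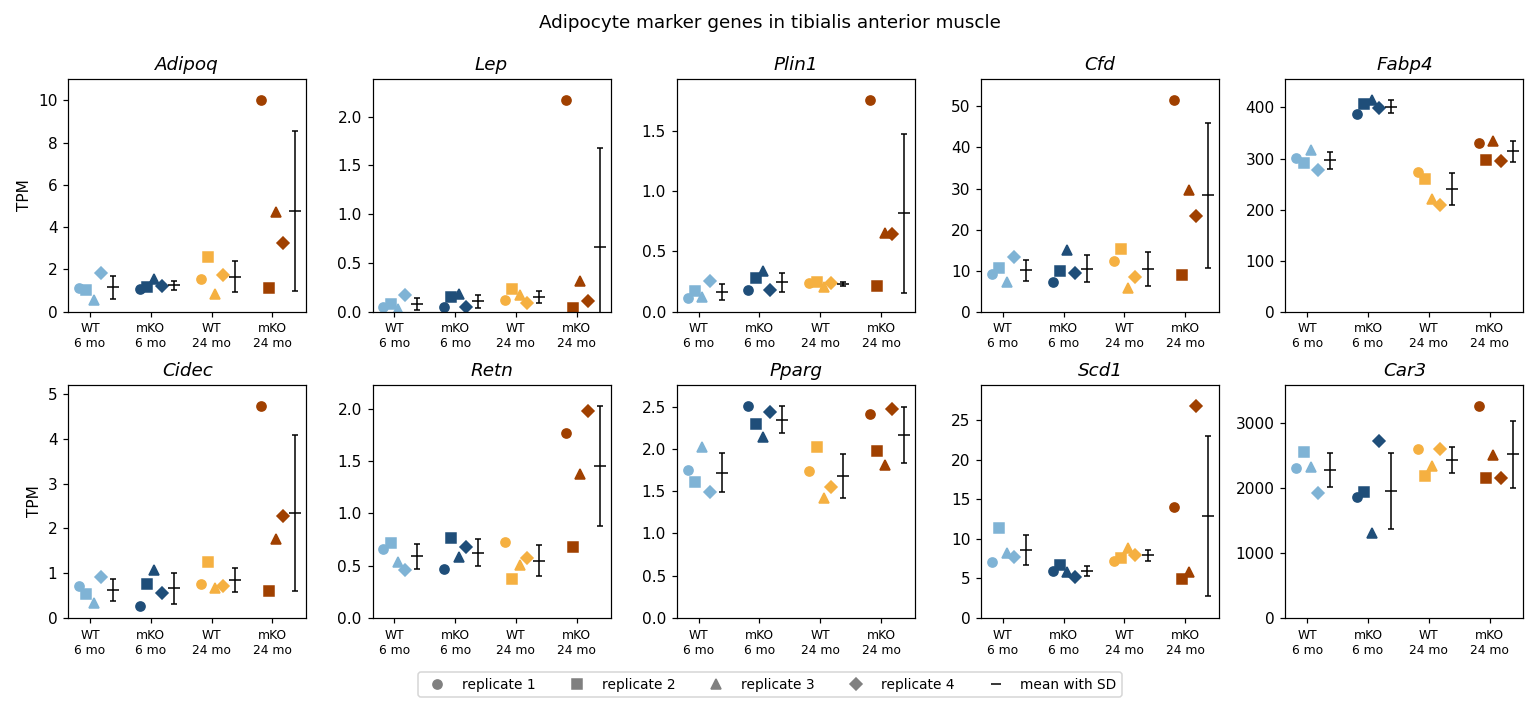
Level of each of the 10 genes (TPM, linear axes from 0) in every sample, by group, with a symbol for each replicate number and the mean with SD beside the points. The lower end of the SD bar of Lep in 24-month UBR4 mKO lies below 0 and is not drawn. Replicate 1 of 24-month UBR4 mKO (circle) is highest of 16 for Adipoq, Lep, Plin1, Cfd, Cidec and Car3, and replicate 2 (square) is at the level of WT for most genes.

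The lipid droplet genes Plin1 and Cidec were also highest in replicate 1 of 24-month UBR4 mKO. Plin1 took the order of Adipoq within that group, whereas Cidec was higher in replicate 4 than in replicate 3. Plin1 was at 0.116, 0.172, 0.1203 and 0.257 TPM in 6-month WT, at 0.181, 0.280, 0.337 and 0.179 TPM in 6-month UBR4 mKO and at 0.237, 0.243, 0.203 and 0.235 TPM in 24-month WT samples. It was at 1.75, 0.210, 0.653 and 0.643 TPM in 24-month UBR4 mKO samples, so that 3 of the 4 were above all samples of the other groups. The narrow range in 24-month WT samples (0.230 ± 0.0180 TPM, SD, n = 4) stood beside a wide one in UBR4 mKO (0.815 ± 0.659 TPM, SD, n = 4). The difference in mean log2 was 1.19 (exact two-sided permutation test, p = 0.114). It was 0.76 without replicate 1 of UBR4 mKO and 1.62 without replicate 2. Replicate 2 was the only sample of its group that overlapped WT, so no p is given without it.

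Cidec was at 0.715, 0.531, 0.327 and 0.923 TPM in 6-month WT, at 0.254, 0.751, 1.07 and 0.554 TPM in 6-month UBR4 mKO and at 0.767, 1.24, 0.662 and 0.720 TPM in 24-month WT samples. It was at 4.74, 0.598, 1.77 and 2.28 TPM in 24-month UBR4 mKO samples. Replicate 2 of the old UBR4 mKO mice was below every WT sample of its age, whereas the other 3 were above all samples of the other groups. Cidec passed the filter on low values only through the 24-month UBR4 mKO group, whose mean was 2.35 ± 1.74 TPM against 0.848 ± 0.267 TPM in WT (SD, n = 4 each). The log2 difference was 1.09 (SE 0.47, limma adjusted p = 0.422), and without replicate 1 it was 0.66.

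Fabp4 was present at far higher levels and behaved differently from the genes above. Its level was 300.3, 291.6, 317.6 and 277.3 TPM in 6-month WT, 386.8, 407.7, 414.5 and 398.2 TPM in 6-month UBR4 mKO, 273.9, 260.9, 220.9 and 208.5 TPM in 24-month WT and 331.0, 296.7, 333.7 and 294.4 TPM in 24-month UBR4 mKO samples. Within each group the samples lay close together, and in all 4 pairwise comparisons the groups did not overlap. Replicate 1 of 24-month UBR4 mKO, which was highest for Adipoq, was 1.12 times the median of the other 15 samples for Fabp4 and had 5 samples above it.

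Fabp4 was 1.35-fold higher in UBR4 mKO than in WT at 6 months (401.8 ± 12.04 against 296.7 ± 16.8 TPM, SD, n = 4 each), with a log2 difference of 0.44 (SE 0.08, limma adjusted p = 0.0013). With median-of-ratios scaling the difference was 0.08 and was not called (limma adjusted p = 0.655). At 24 months it was 1.30-fold higher in UBR4 mKO (314.0 ± 21.3 against 241.0 ± 31.3 TPM, SD, n = 4 each), with a log2 difference of 0.39 (SE 0.08, limma adjusted p = 0.0474). When samples were left out one at a time, that call held in 2 of 16 fits, and median-of-ratios scaling gave a difference of 0.37 with a limma adjusted p of 0.156. With age Fabp4 fell by 0.31 on the log2 scale in WT (SE 0.08, limma adjusted p = 0.0179) and by 0.36 in UBR4 mKO (SE 0.08, limma adjusted p = 0.0165), where median-of-ratios scaling ended the second call (limma adjusted p = 0.111). Covariates from Xist and the Y-linked genes ended both age calls, at limma adjusted p = 0.475 in WT and limma adjusted p = 0.562 in UBR4 mKO. In order of group means Fabp4 was highest in 6-month UBR4 mKO, then in 24-month UBR4 mKO, 6-month WT and 24-month WT, and the middle 2 groups overlapped. In bulk tissue, more cells that express a gene and more RNA of it per cell cannot be told apart.

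The markers of endothelium, which also express Fabp4, moved with it in some comparisons. The summed level of 10 endothelial genes (Pecam1, Cdh5, Kdr, Tie1, Tek, Cldn5, Emcn, Vwf, Esam and Egfl7) was 122.6 to 161.8 TPM in 6-month WT and 200.1 to 204.9 TPM in 6-month UBR4 mKO samples, without overlap. Of the 10, 7 were called higher in UBR4 mKO at 6 months, where 43.7% of all genes were, with Tie1 at a log2 difference of 0.54 and Cdh5 at 0.53, and with median-of-ratios scaling 0 were called. At 24 months the sum was 134.1 to 161.4 TPM in WT and 125.8 to 156.3 TPM in UBR4 mKO samples, and 0 of the 10 were called, with a median log2 difference of 0.019 (all genes: 0.013), while Fabp4 did not overlap. With age, 5 of the 10 were called lower in UBR4 mKO (Cdh5 -0.71, Tie1 -0.58), where 3.85% of all genes were, and 0 in WT, where 1.07% were. Median-of-ratios scaling gave 5 lower in WT, where 9.77% of all genes were called, and 6 lower in UBR4 mKO, where 11.3% were. None of the 10 endothelial genes was at 0 in any group. Their part in the level of Fabp4 was not tested.

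**Figure D2:**
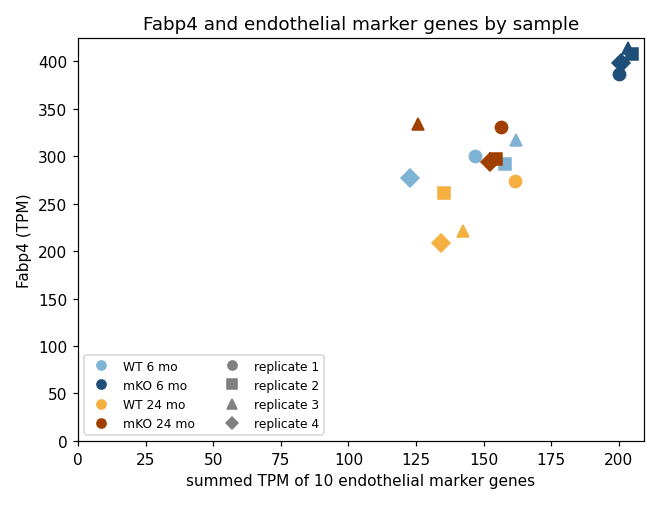
Fabp4 (TPM) against the summed TPM of 10 endothelial marker genes in each of the 16 samples, with a color per group and a symbol per replicate. The 4 samples of 6-month UBR4 mKO lie at the upper right, above 200 TPM of endothelial genes and at 386.8 to 414.5 TPM of Fabp4, whereas at 24 months the genotypes differ in Fabp4 at similar endothelial sums.

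Pparg was at 1.42 to 2.504 TPM in all 16 samples. It was at 1.76, 1.61, 2.02 and 1.48 TPM in 6-month WT and at 2.504, 2.30, 2.14 and 2.44 TPM in 6-month UBR4 mKO samples, without overlap. The log2 difference of 0.43 (SE 0.14) was called (limma adjusted p = 0.0244), whereas it was 0.10 with median-of-ratios scaling and not called (limma adjusted p = 0.636). The call was also lost without replicate 4 of WT (limma adjusted p = 0.0771) and without replicate 1 or replicate 4 of UBR4 mKO (limma adjusted p = 0.058 and limma adjusted p = 0.0597). At 24 months Pparg was at 1.74, 2.02, 1.42 and 1.54 TPM in WT and 2.42, 1.97, 1.81 and 2.48 TPM in UBR4 mKO samples, which overlapped, with a log2 difference of 0.35 (SE 0.14, limma adjusted p = 0.403). The sample with the highest Adipoq was 1.23 times the median of the other 15 samples for Pparg.

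Scd1 was at 7.02, 11.3, 8.18 and 7.65 TPM in 6-month WT and at 5.93, 6.67, 5.82 and 5.21 TPM in 6-month UBR4 mKO samples. No UBR4 mKO sample reached the lowest WT sample (exact two-sided permutation test, p = 0.0286), but the log2 difference of -0.51 (SE 0.36) was not called over all genes (limma adjusted p = 0.236). In the fit of these 2 groups alone it was called (limma adjusted p = 0.021). At 24 months Scd1 was at 7.23, 7.57, 8.81 and 7.95 TPM in WT and at 13.97, 4.94, 5.86 and 26.8 TPM in UBR4 mKO samples. Here replicate 4 was highest and replicates 2 and 3 were below WT, an order unlike that of Adipoq. The log2 difference was 0.37 (SE 0.36, limma adjusted p = 0.849), and it was -0.087 without replicate 4. Transcripts of Scd1 and Scd2 are 94.2% identical over 896 bases, so reads could be shared between them and the level of Scd1 is uncertain to that extent.

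Car3 was the most abundant of the 10 genes and made up most of their summed level. It was at 2297, 2551, 2317 and 1915 TPM in 6-month WT, at 1855, 1937, 1302 and 2714 TPM in 6-month UBR4 mKO, at 2592, 2182, 2326 and 2592 TPM in 24-month WT and at 3253, 2153, 2496 and 2154 TPM in 24-month UBR4 mKO samples. Carbonic anhydrase 3 is abundant both in adipocytes and in slow myofibers. The log2 difference between the genotypes was -0.26 at 6 months (SE 0.17, limma adjusted p = 0.208) and 0.04 at 24 months (SE 0.17, limma adjusted p = 0.984). At 6 months it was called lower with median-of-ratios scaling (-0.61, limma adjusted p = 0.0172) and without replicate 4 of UBR4 mKO (-0.43, limma adjusted p = 0.0413), the sample with Y-linked genes near 0. Of 9 genes listed for slow myofibers, 2 were called higher in UBR4 mKO at 6 months, Tnni1 (1.44) and Atp2a2 (0.83), where 43.7% of all genes were. The other 7 were not called. The summed level of the 9 was 239.9 to 874.1 TPM in WT and 591.2 to 1191 TPM in UBR4 mKO samples, which overlapped. The sum was highest in the same replicate 4 of UBR4 mKO. One of the listed genes, Myh2, is the myosin heavy chain of type 2A fibers, which are not slow. Myh2 made up most of the sum, with 971.9 TPM in that replicate, so the sum mainly follows Myh2.

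Over the comparison of the genotypes at 6 months, 2 of the 7 genes tested were called, Fabp4 and Pparg, both higher. Of all 10628 genes, 44.9% were called in this comparison and 43.7% were called higher, and after median-of-ratios scaling 16.8% of all genes were called and Car3 alone among the 7. Groups did not overlap, with UBR4 mKO higher, for 39.0% of all genes, as for Fabp4 and Pparg, and with UBR4 mKO lower for 0.932% of all genes, as for Scd1. The median log2 difference of the 7 genes was 0.029, against 0.33 for all genes. Adipoq (0.20), Cfd (0.03) and Cidec (0.01) lay below the median gene, and with median-of-ratios scaling their differences turned to -0.13, -0.32 and -0.30, none of them called.

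At 24 months 1 of the 7 was called, Fabp4, against 0.630% of all genes called and 0.433% called higher, and after median-of-ratios scaling 0 were, against 0.913% of all genes. The log2 differences of the 7 ran from 0.04 for Car3 to 1.27 for Cfd, against 0.013 for the median gene. Their median of 0.39 includes Cidec, which entered the fit only through 24-month UBR4 mKO, so nothing is read from it. Groups did not overlap for 5.80% of all genes (4.29% with UBR4 mKO higher), and among the 10 genes they did not overlap for Fabp4. Without the samples UBR4 mKO replicate 4 of 6 months and replicates 1 and 3 of 24 months, 0 of the 7 were called at 24 months, against 0.301% of all genes, and the log2 differences of Adipoq, Cfd and Cidec were 0.30, 0.56 and 0.48. Without the same samples 3 of the 7 were called at 6 months, against 40.6% of all genes, Car3 being the third and lower (-0.43, limma adjusted p = 0.0135). With age 1 of the 7 was called in WT, against 37.5% of all genes, and 1 in UBR4 mKO, against 3.59%.

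With age in WT, 1 of the 7 was called, Fabp4, which was lower, against 25.1% of all genes called in either direction and 1.07% called lower. After median-of-ratios scaling it was again Fabp4 alone, against 9.77% of all genes, and for 1.83% of all genes, Fabp4 among them, every 24-month sample was below every 6-month sample. The median over the 7 was -0.013, against 0.26 for all genes. With age in UBR4 mKO, Fabp4 was again called lower, against 6.29% of all genes called and 3.85% called lower, and it was among the 8.49% of genes whose 24-month samples were all below the 6-month samples. There Adipoq (1.49, SE 0.47, limma adjusted p = 0.0742) and Cfd (1.23, SE 0.40, limma adjusted p = 0.0828) were not called, but both were without replicate 2 of 24-month UBR4 mKO, each at limma adjusted p = 0.00721. For both genes that replicate was the only sample of its group that overlapped 6-month UBR4 mKO, so nothing is read from those calls. The difference of Cidec was 1.51 (SE 0.47, limma adjusted p = 0.0666). It was called without the same replicate (limma adjusted p = 0.00932) and, as 1 of the 7 against 11.3% of all genes, after median-of-ratios scaling (limma adjusted p = 0.0499). Cidec entered the fit only through its level in 24-month UBR4 mKO, so nothing is read from any of its values in this comparison. Adipoq was called with limma array weights (limma adjusted p = 0.038). Both comparisons of age are between samples with and without Xist. The 2 comparisons with 24-month UBR4 mKO share those 4 samples, so the differences of one recur in the other.

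The interaction of genotype and age was called for 0 of the 7 genes, against 4.70% of all genes, and after median-of-ratios scaling also for 0, against 1.99% of all genes. The difference between the effects at 24 and at 6 months was largest for Cfd (1.24, SE 0.57, unadjusted p = 0.0429, limma adjusted p = 0.152), the only one of the 7 with an unadjusted p under 0.05, followed by Cidec (1.08, SE 0.66, limma adjusted p = 0.247) and Adipoq (0.99, SE 0.67, limma adjusted p = 0.288). Cidec entered the fit only through its level in 24-month UBR4 mKO, so nothing is read from its interaction. A larger effect at 24 than at 6 months was thus not shown for any of the 7, and for Lep, Plin1 and Retn the interaction was not tested.

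**Figure D3:**
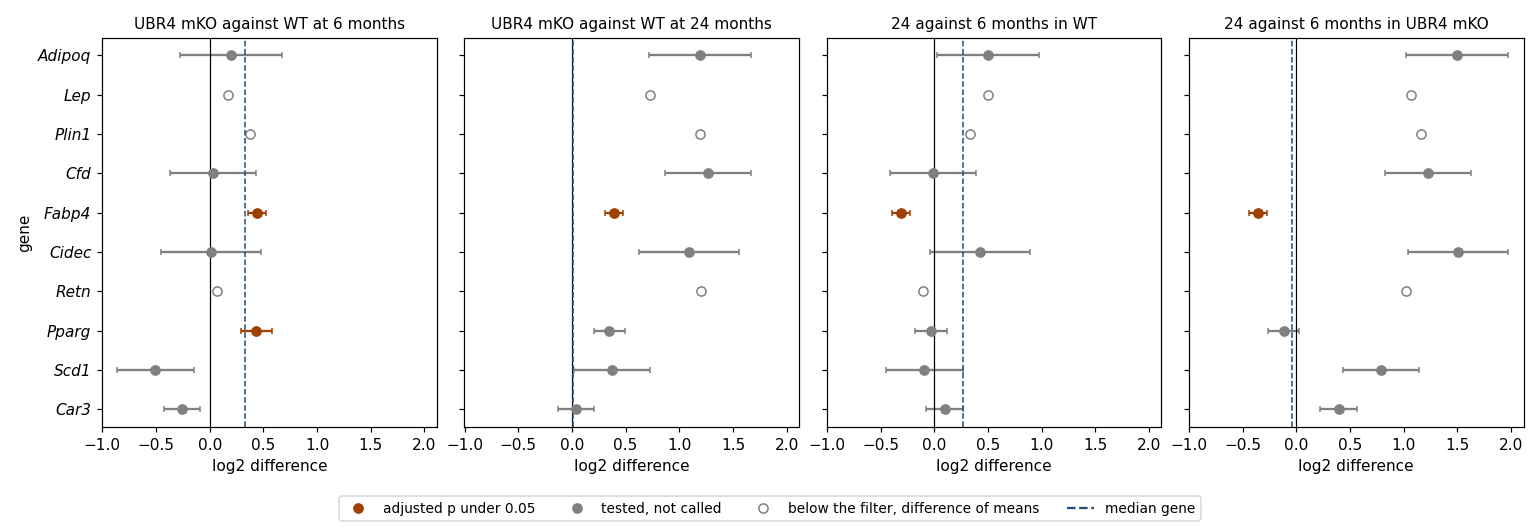
Log2 difference of each gene in the 4 pairwise comparisons, with bars of 1 SE for the 7 genes tested, open circles for Lep, Plin1 and Retn, which were below the filter, and a dashed line at the median of all genes tested. With TPM as deposited, Fabp4 is called in all 4 and Pparg at 6 months, with small errors, whereas Adipoq, Cfd and Cidec have the larger differences with the larger errors.

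The genes differed widely in their spread within groups. The SD of log2 levels within groups was 0.78 for Adipoq, 0.76 for Cidec, 0.67 for Cfd and 0.59 for Scd1, against 0.20 for the median gene tested. Of all genes tested, 99.03% had a smaller SD than Adipoq and 97.5% a smaller SD than Scd1. Of all genes, 76.6% had a smaller SD than Car3 (0.28), 40.7% a smaller SD than Pparg (0.18) and 9.24% a smaller SD than Fabp4 (0.12). Without replicate 1 of 24-month UBR4 mKO the SD of Adipoq was 0.65, with 98.2% of genes below it. The SD of Adipoq was 79.4% of the mean in 24-month UBR4 mKO and 16.3% in 6-month UBR4 mKO samples.

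The sample with most adipocyte marker RNA was replicate 1 of 24-month UBR4 mKO. It was highest of 16 for 6 of the 10 genes and above every WT sample of its age for 10 of 10. Relative to the median of the other 15 samples it was 19.2-fold higher for Lep, 8.31-fold for Adipoq, 7.45-fold for Plin1, 6.57-fold for Cidec, 5.14-fold for Cfd and 2.69-fold for Retn, but 1.93-fold for Scd1, 1.42-fold for Car3, 1.23-fold for Pparg and 1.12-fold for Fabp4. Replicates 3 and 4 of the same group were above every WT sample of 24 months for 7 and 8 genes, and replicate 2 for 1 gene, Fabp4. Replicate 2 was lowest of its group for 8 of the 10 genes. The median ratio of the 10 genes to the 24-month WT median was 4.09, 0.867, 2.28 and 2.11 for replicates 1 to 4, and in the 6-month samples it was 0.759 to 1.26. In each of the 4 groups a single sample was highest for all 5 of Adipoq, Lep, Plin1, Cfd and Cidec, which are named together here because they varied together over these samples. Beside replicate 1 of 24-month UBR4 mKO these were replicate 4 of 6-month WT, replicate 3 of 6-month UBR4 mKO and replicate 2 of 24-month WT, whose median ratios were 1.11, 1.26 and 1.16.

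**Figure D4:**
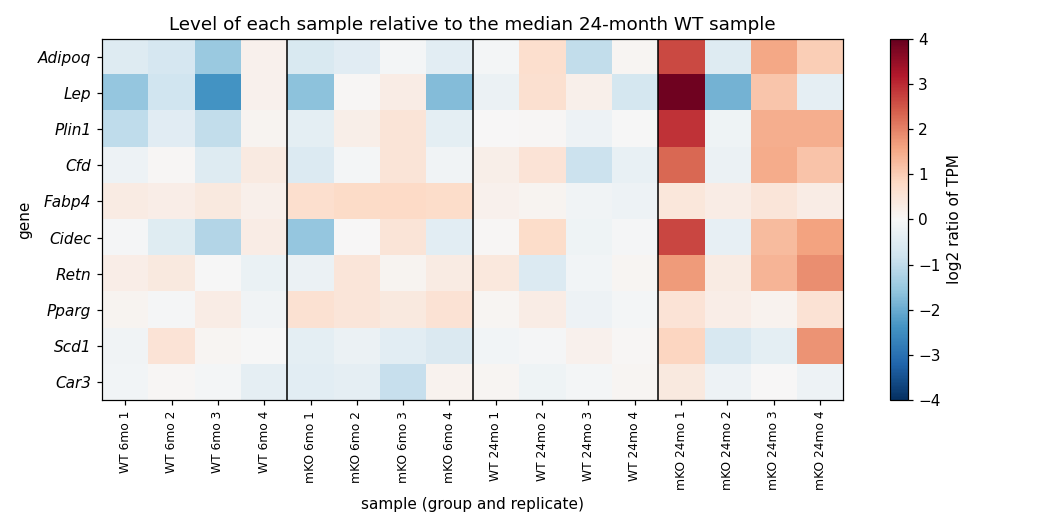
Level of each gene in each of the 16 samples as the log2 ratio to the median of the 24-month WT samples, with red for higher and blue for lower and lines between the groups. The column of 24-month UBR4 mKO replicate 1 is red for all 10 genes, with Lep highest (14.9-fold), and that of replicate 2 is blue or nearly white.

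Markers of other cells in those samples were measured as well. The summed level of 10 fibroblast and adipocyte progenitor genes was highest in replicate 1 of 24-month UBR4 mKO, at 937.3 TPM, against 509.8 to 596.3 TPM in the other 3 and 318.7 to 772.6 TPM in WT samples of that age. Leukocyte genes were highest in replicate 2, at 347.1 TPM, against 105.9 to 157.3 TPM in the other 3. Genes listed for slow myofibers were at 327.7 TPM in replicate 1, against 136.2 to 218.4 TPM in the other 3. Most of this was Myh2 of type 2A fibers, at 213.7 TPM in replicate 1 and 73.7 to 152.1 TPM in the other 3. Endothelial genes were at 156.3 TPM in replicate 1 and at 125.8 to 154.4 TPM in the other 3, and blood genes at 867.7 TPM in replicate 1 and at 752.8 to 2069 TPM in the other 3. Schwann cell genes were at 43.2 TPM in replicate 1 and at 33.9 to 37.1 TPM in the other 3. Tendon genes were at 105.8 TPM in replicate 1 and at 67.7 to 76.8 TPM in the other 3, and 4 of 7 epidermis genes were at 0 in all 4 samples. The part of these cells in the levels of the 10 genes was not tested.

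Over the groups, 6 of 6 leukocyte genes tested were called higher in UBR4 mKO at 6 months (Cd68 2.77, Lyz2 2.05), 0 at 24 months and 3 higher with age in WT (Cd68 2.02, Lyz2 1.39), against 43.7% of all genes called higher at 6 months, 0.630% called at 24 months and 25.1% called with age in WT. With median-of-ratios scaling 6 were again called at 6 months and 1 with age in WT. Of 9 fibroblast and progenitor genes tested, 4 were called higher in UBR4 mKO at 6 months (Col3a1 1.45, Lum 0.83), close to the 43.7% of all genes called higher there, and 1 with median-of-ratios scaling, and 0 were called at 24 months. With age 1 of the 9 was called lower in WT (Col1a1 -1.91) and 3 in UBR4 mKO (Col1a1 -1.95, Col3a1 -1.15), with the same counts after median-of-ratios scaling. Of 6 tendon genes 4 were called lower with age in UBR4 mKO (Tnmd -2.01, Kera -1.79) with either scaling. With age in WT 3 of 9 genes listed for slow myofibers were called lower (Myl2 -1.84, Myh2 -1.27), against 1.07% of all genes, and 1 higher (Atp2a2 0.55). In UBR4 mKO 3 of 9 were called lower (Myh2 -2.13, Tnni1 -1.46), against 3.85% of all genes. Myh2 is the myosin heavy chain of type 2A fibers and not of slow fibers. With median-of-ratios scaling 4 were lower and 0 higher in either genotype. Between the genotypes at 24 months 0 genes of the lists of endothelium, leukocytes, fibroblasts, Schwann cells, tendon, blood, myofibers and slow myofibers were called.

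After the group means were subtracted, 4 of the genes followed Adipoq closely over the 16 samples, on the log2 scale. Pearson's r with Adipoq was 0.94 for Cfd, 0.87 for Plin1, 0.87 for Cidec and 0.81 for Lep, and Spearman's rho was 0.85, 0.69, 0.78 and 0.69. Without the 2 samples farthest from the median of Adipoq, replicates 1 and 2 of 24-month UBR4 mKO, r was 0.86, 0.60, 0.68 and 0.51. The others followed it less: r was 0.41 for Retn, 0.29 for Fabp4, 0.27 for Scd1, 0.19 for Car3 and 0.17 for Pparg. For Retn, Scd1, Car3 and Pparg, r was below 0 without those 2 samples, at -0.27, -0.30, -0.28 and -0.14. The highest r of Retn was with Scd1 (r = 0.67, rho = 0.49), and its highest rho was with Car3 (0.56). Its r with Plin1 (0.56) and Cidec (0.53) fell to -0.083 and 0.076 without the 2 samples farthest from the median. These r values describe samples that share the scaling to a fixed sum, and no p is given for them.

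**Figure D5:**
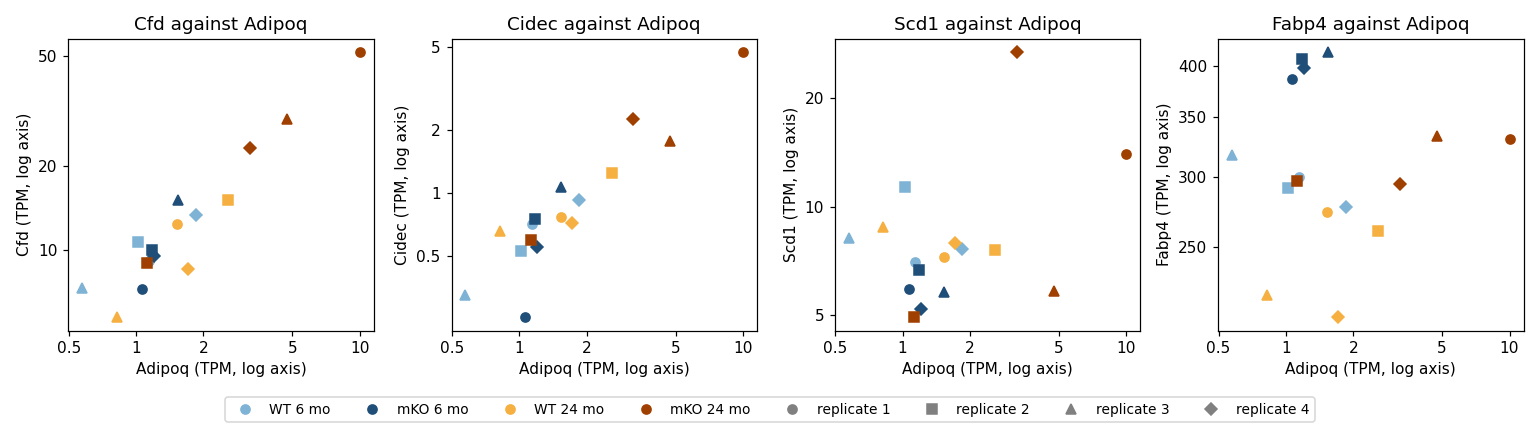
Cfd, Cidec, Scd1 and Fabp4 against Adipoq in the 16 samples (TPM, log axes), with a color per group and a symbol per replicate. Cfd and Cidec rise with Adipoq across all groups, whereas Scd1 is highest in 24-month UBR4 mKO replicate 4 and Fabp4 separates the groups rather than following Adipoq.

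Of further genes known from adipocytes, 27 were in the table and 15 were tested. In UBR4 mKO against WT at 6 months 7 were called higher and 0 lower, close to the 43.7% of all genes called higher, with a median log2 difference of 0.33 (all genes: 0.33), and with median-of-ratios scaling 1 was higher and 1 lower. The 7 included Npr3, a receptor that clears natriuretic peptides (1.29, limma adjusted p = 0.000531), and Cebpa, a C/EBP factor (0.89, limma adjusted p = 0.00613). At 24 months 0 were called, with a median of 0.19 against 0.013 for all genes. With age in WT, Cebpa (0.77) and Gpd1 (0.36) were called higher and Dgat2 (-0.82), which completes triglyceride synthesis, lower, and in UBR4 mKO Npr3 (-1.502) and Thrsp (-0.61) were called lower. Of all genes 25.1% were called and 1.07% called lower with age in WT, and 3.85% were called lower in UBR4 mKO. With median-of-ratios scaling 0 were higher and 2 lower in WT, and 1 was lower in UBR4 mKO. The genes of the list with the most RNA, Gpd1, Slc2a4, Cd36 and Lpl, with group means from 95.5 TPM for Lpl to 381.1 TPM for Gpd1, are also expressed by myofibers or endothelium.

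Of the genes of that list that were below the filter, Pck1, which makes the glycerol part of triglyceride in adipocytes, was at 1.48, 0.194, 0.847 and 0.111 TPM in 24-month UBR4 mKO samples and at 0.160 to 0.488 TPM in WT samples of that age. Lgals12, a galectin of the lipid droplet, was at 0.545, 0.128, 0.308 and 0.240 TPM and in WT samples at 0.0657 to 0.245 TPM. Both were highest in the sample with the highest Adipoq, and these 2 genes were chosen after their values were seen. Of the 12 genes of the list below the filter, 8 were highest of the 4 samples in replicate 1, Orm1 in replicate 3 and Adrb3, Mrap and Rbp4 in replicate 4. The brown fat genes Ucp1 and Cpn2 were listed at 0 in every sample. Cidea, a relative of Cidec that is also a brown fat gene, was called higher in UBR4 mKO at 6 months (1.47, limma adjusted p = 0.000335). Cidea passed the filter on low values only through 6-month UBR4 mKO, where it was highest, so nothing is read from that call. Cox7a1, a subunit of cytochrome oxidase in brown fat and in muscle, was called in the same directions as Fabp4, higher in UBR4 mKO at 6 (0.43) and 24 months (0.40) and lower with age in WT (-0.31) and UBR4 mKO (-0.35). With median-of-ratios scaling Cox7a1 was called with age in WT alone, and at 6 months its difference was 0.08, whereas Cidea was still called, with the same limit.

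Of 14 genes of fatty acid synthesis, which supply the substrate of Scd1, 13 were tested. At 6 months 4 were called higher in UBR4 mKO, with the largest differences for Acss2 (0.79, limma adjusted p = 0.000216) and Mlxipl (0.53, limma adjusted p = 0.0193), a smaller share than the 43.7% of all genes called higher. With median-of-ratios scaling 1 was called higher, Acss2, and 1 lower, and at 24 months 0 were called with either scaling. With age Insig1 was called higher in WT (0.43), where 25.1% of all genes were called. Elovl5 (-0.60) and Acss2 (-0.51) were called lower in UBR4 mKO, where 3.85% of all genes were called lower. With median-of-ratios scaling 0 were higher and 1 lower in WT, against 9.77% of all genes called. In UBR4 mKO 2 were lower with that scaling, against 11.3% of all genes called. Of the receptors of adiponectin and leptin, Adipor1 (group means 67.4 to 80.2 TPM) and Adipor2 (34.8 to 41.4 TPM) were called in none of the 4 pairwise comparisons with TPM as deposited. With median-of-ratios scaling Adipor1 was called lower in UBR4 mKO at 6 months (-0.53, limma adjusted p = 0.000572, against -0.18 as deposited). Cdh13, which binds adiponectin at the cell surface, was called higher in UBR4 mKO at 6 months (0.30, but -0.05 with median-of-ratios scaling) and lower with age in UBR4 mKO (-0.53), and Lepr had group means of 0.515 to 1.07 TPM and was below the filter.

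The paralogs of the 10 genes set their levels in context, and 22 were in the table, of which 15 were tested. Fabp3, the carrier of muscle, was at group means of 569.5 to 936.5 TPM and Fabp5 at 3.76 to 6.75 TPM, so that Fabp4 was between them. Both were called higher in UBR4 mKO at 6 months (0.65 and 0.84 on the log2 scale). Among perilipins, Plin2 (8.90 to 15.1 TPM), Plin3 (19.4 to 24.9 TPM), Plin4 (77.3 to 95.4 TPM) and Plin5 (14.6 to 18.8 TPM) all exceeded Plin1, and Plin2 was called higher in UBR4 mKO at 6 months (0.76) and with age in WT (0.34, but 0.07 and not called with median-of-ratios scaling). Scd2 had group means of 4.26 to 4.62 TPM and was not called in any comparison, and those of Scd3 and Scd4 were at most 0.0668 TPM.

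Car2 (5.61 to 10.2 TPM) was called higher in UBR4 mKO at 6 months (0.61), and Car1 (0.292 to 0.654 TPM) and Car13 (0.216 to 0.574 TPM) were below the filter. Of the relatives of resistin, Retnla, at group means of 8.45 to 18.4 TPM, was more abundant than Retn, Retnlg was at 0.260 to 1.46 TPM and Retnlb was at 0 in all groups. Cideb had group means of at most 0.0345 TPM. Of the adiponectin relatives C1qtnf9 (20.4 to 33.1 TPM) was more abundant than Adipoq and was called higher in UBR4 mKO at 6 months (0.26, but -0.09 and not called with median-of-ratios scaling) and lower with age in WT (-0.43) and in UBR4 mKO (-0.48), whereas C1qtnf1 (1.20 to 1.84 TPM) and C1qtnf2 (0.961 to 1.83 TPM) were not called. Ppara (3.27 to 4.53 TPM) and Ppard (6.34 to 7.90 TPM) exceeded Pparg and were not called. At 24 months 0 of the 15 paralogs were called between the genotypes. At 6 months 6 of the 15 were called higher, close to the 43.7% of all genes, and 2 with median-of-ratios scaling, against 16.8% of all genes called in either direction. With age in WT 1 was called higher and 1 lower, against 25.1% of all genes called and 1.07% called lower. With median-of-ratios scaling 0 were higher and 2 lower in WT, against 9.77% of all genes called. In UBR4 mKO 1 was called lower with either scaling, against 3.85% of all genes called lower and 11.3% called after median-of-ratios scaling.

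The genes outside all lists whose pattern was most like that of the adipocyte markers were found by Pearson's r over the 16 samples with the mean log2 level of Adipoq, Cfd, Fabp4, Cidec, Pparg and Scd1, after subtracting group means. They were Cdo1, a cysteine dioxygenase (r = 0.88), Dbr1, an RNA debranching enzyme (r = 0.88), Cyp2e1, a cytochrome P450 (r = 0.84), Cdkn2c, an inhibitor of cell cycle kinases (r = 0.81), and Ighv1-42, an immunoglobulin heavy chain segment (r = 0.76). With median-of-ratios scaling and without replicate 1 of 24-month UBR4 mKO the first 3 kept the first 3 ranks, whereas Cdkn2c ranked 6 and 10 and Ighv1-42 ranked 28 and 16. Without subtracting group means Cdo1 ranked 1, Cyp2e1 2, Ighv1-42 3, Dbr1 5 and Cdkn2c 11. Of the genes that form the pattern, Fabp4 (r = 0.35), Pparg (r = 0.35) and Scd1 (r = 0.56) followed it less than Cfd (r = 0.95), Cidec (r = 0.94) and Adipoq (r = 0.92). In 24-month UBR4 mKO samples Cdo1 was at 3.14, 0.725, 1.28 and 3.04 TPM and Cyp2e1 at 3.51, 0.996, 1.80 and 4.68 TPM. Both were thus lowest in replicate 2, like Adipoq and Cfd. Dbr1 was at 3.79, 2.59, 3.35 and 3.68 TPM, a much narrower range. Ighv1-42 was listed at 0 in all samples of the other 3 groups and was at 26.0 TPM in replicate 1 of this one. Cdo1 had group means of 1.00, 0.805 and 0.943 TPM in the other 3 groups and 2.05 TPM in this one. Cdo1 and Ighv1-42 thus passed the filter only through 24-month UBR4 mKO, as did Cidec, which is part of the pattern. Nothing is therefore read from the likeness of Cdo1 and Ighv1-42.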

How the data were processed

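According to the methods and the labels, the authors sequenced polyadenylated RNA of tibialis anterior muscles, aligned the trimmed paired-end reads to GRCm38 (mm10) and deposited a table of TPM per gene made with CLC Genomics Workbench. The labels name a stranded library kit and the methods a different kit. The annotation release, the treatment of reads that match several genes and whether strand was used in counting are not given in the sources used here. Each sample is scaled to the same sum, so depth and its counting error are unknown. No 2 samples held identical values. The labels do not say whether the replicates of a group came from separate litters, so p-values measure the spread between these samples.

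Values were log2-transformed after adding 0.1. The 10628 genes with a mean of at least 1 TPM over the 16 samples entered a limma fit (version 3.58.1, R 4.3.3, trended variance, 1 coefficient per group, no covariate), with contrasts for genotype at each age, age in each genotype and their interaction, and Benjamini-Hochberg adjustment over all genes tested, with a threshold of 0.05. The fit was tested on simulated data. The study's methods use Kruskal-Wallis and Dunn's tests, of which Dunn's test alone was run as an alternative, without the Kruskal-Wallis step. Single genes below the filter were compared by exact two-sided permutation tests over the 70 assignments of 4 against 4 samples. The alternatives were other pseudocounts and filters, median-of-ratios scaling, scaling without mitochondrially encoded genes, array weights, a replicate block, fits of 2 groups, covariates from Y-linked genes and Xist, and fits without single samples. A fit without 3 samples was added after seeing the data.

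The 10 genes and all gene lists were chosen with earlier results of these data known. Named from the lists were all paralogs and, per comparison, the called genes with the largest rise or fall (at most 2 each), and, for likeness, the 5 genes with the highest r, without placeholder symbols. Positions are from GENCODE vM21, similar transcripts from minimap2 2.31, and start sites from RefSeq on GRCm38.p6. Tables and figures were made with Python 3.11.15, pandas 2.3.3 and matplotlib 3.10.9.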

Additional observations from a re-analysis of the deposited data

Results flagged for a closer look

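Among the 40 groups of 4 samples formed by the 10 genes and 4 groups, 1 had a sample far from the other 3 by Dixon's criterion, where chance gives about 1 in 20 groups, or 2 of 40. It was Lep in 24-month UBR4 mKO muscles, at 2.17 TPM in replicate 1 and at 0.0397 to 0.319 TPM in the other 3, with a gap of 0.869 of the whole range.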

How the results depend on the processing

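The number of the 7 tested genes that were called depended on the settings. At 6 months it was 2 (Fabp4 and Pparg). It became 1 with median-of-ratios scaling and without mitochondrially encoded genes, where both calls were lost and Car3 was called lower. It was 1 (Fabp4) with a mean TPM of at least 5, where only 4 of the genes were tested. It was 3 with array weights, with only the 2 groups and without 3 samples, and 0 with Dunn's test. It was 1 to 2 over the fits that each left out 1 sample. At 24 months it was 1. It became 0 with no filter, with median-of-ratios scaling, without mitochondrially encoded genes, with array weights and with only the 2 groups. It also became 0 with Dunn's test, with the covariates from Y-linked genes and Xist and without 3 samples, and it was 0 to 1 when single samples were left out. With age in WT it was 1 and became 0 with Dunn's test and with the covariates, and it was 0 to 1 when single samples were left out. With age in UBR4 mKO it was 1 and became 2 with array weights (Fabp4 and Adipoq) and 0 with Dunn's test and with the covariates. It was 0 to 3 when single samples were left out. The interaction gave 0 in every fit run. The cause of these changes was not tested. Over the same fits the number of all genes called ran from 1586 to 6814 at 6 months, from 0 to 254 at 24 months, from 0 to 6531 with age in WT, from 0 to 1743 with age in UBR4 mKO and from 187 to 2861 for the interaction. It was 0 at 24 months and with age with Dunn's test, and 0 with age with the covariates.

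The replicate numbers did not pair the samples, since the deviations of same-numbered samples from their group means correlated at -0.35 to 0.18 over 24 pairs, of which 4 were over 0.1. With the replicate number as a block, 0 in place of 1 of the 7 genes were called at 24 months and the numbers in the other comparisons stayed at 2, 1, 1 and 0.

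Some log2 differences changed direction. Between the genotypes at 6 months, median-of-ratios scaling and scaling without mitochondrially encoded genes gave -0.13 and -0.032 for Adipoq, -0.32 and -0.22 for Cfd, -0.30 and -0.23 for Cidec and -0.23 and -0.16 for Retn, and median-of-ratios scaling gave -0.050 for Cdh13. Cidec was at -0.00264 with a pseudocount of 0.01 and at -0.011 with the covariates. At 24 months Car3 was at -0.00636 without mitochondrially encoded genes and at -0.17 without 3 samples, and Lep at -0.52 without 3 samples. With age in WT, array weights and the covariates gave 0.25 and 0.57 for Cfd and 0.014 and 0.93 for Scd1, the 2 scalings gave -0.18 and -0.095 for Car3, and the covariates gave 0.74 for Myl2, -0.21 for Cd68 and -0.17 for Lyz2. With age in UBR4 mKO, Lep was at -0.34 without 3 samples. The interaction became 0.28 and 0.16 for Fabp4 and 0.23 and 0.12 for Pparg with the 2 scalings, and 0.022 for Pparg with array weights.

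Leaving out 1 sample at a time also moved some differences through 0. Their ranges at 6 months were -0.062 to 0.45 for Adipoq, -0.16 to 0.19 for Cfd, -0.24 to 0.33 for Cidec, -0.0018 to 0.37 for Lep and -0.029 to 0.18 for Retn. At 24 months they were -0.095 to 0.10 for Car3, -0.096 to 1.25 for Lep and -0.087 to 0.72 for Scd1. With age in WT they were -0.22 to 0.24 for Cfd, -0.12 to 0.047 for Pparg, -0.23 to 0.036 for Retn and -0.18 to 0.050 for Scd1. For the interaction they were -0.12 to 0.014 for Fabp4 and -0.16 to 0.00048 for Pparg. The differences of Adipoq and Cfd at 24 months and with age in UBR4 mKO stayed above 0 in every fit run. Depth is unknown from TPM, so for Lep, Plin1 and Retn no counting error can be given.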
